A study of Homo sapiens with 5 samples.

Results

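RNA levels of 10 transcription factors of the neural crest and of melanocytes were read from 5 RNA-seq libraries of cells in which BPTF, the largest subunit of the NURF chromatin remodelling complex, had been silenced with a short hairpin RNA (shBPTF). The 10 factors are SOX10, SOX9, SOX5, SOX2, PAX3, TFAP2A, TFAP2C, FOXD3, IRF4 and MSC. They were taken by name, with earlier results of these data known, and were 10 of the 31029 genes listed for both cell lines. Of the 5 libraries, 2 came from 501Mel, an established human melanoma line, and 3 from Hermes 3A, an immortalised human melanocyte line. Both lines received shBPTF from a lentiviral vector and selection for it. 501Mel cells were grown in RPMI medium with foetal calf serum. The Hermes 3A medium also held the phorbol ester TPA, cholera toxin, stem cell factor and endothelin-1. No control library was analysed here, so a value gives a factor's level after BPTF silencing, and the comparison is between the lines. Cell line and growth medium cannot be told apart as sources of a difference. The count tables list 37259 genes for 501Mel and 34033 for Hermes 3A, and whether both lines were counted alike is not known. Any difference in counting cannot be told apart from the line either. Each cell type is represented by a single line, and nothing in the labels says that its libraries came from separate cultures, so that the p-values measure only the spread between these samples.

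Melanocytes arise from the neural crest, a migratory population of the embryo that also gives Schwann cells, peripheral neurons and bones of the face. Crest cells are specified by SOX, PAX, TFAP2 and FOXD3 proteins, and in the melanocyte lineage SOX10 and PAX3 switch on MITF, which with TFAP2A and IRF4 drives the pigment genes. FOXD3 and SOX2 hold back the melanocyte fate, while SOX5 can dampen the action of SOX10.

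The libraries held between 30073071 and 43032311 counts, and 3 counts, taken here as the floor of detection, corresponded to 0.0697 to 0.0998 counts per 1000000 counts of the library (CPM). This floor covers counting error only. Hermes 3A replicate 1 stood apart from its group, with a chi-square per gene of 96.1 and 101 against the other two, beside 21.5 between replicates 2 and 3. It was 72.9 between the 501Mel replicates, and counting noise alone gives about 1. BPTF itself was read at 65.8 and 57.8 CPM in 501Mel cells and at 45.8, 51.6 and 54.1 CPM in Hermes 3A cells, which without control libraries does not check the silencing. The melanocyte markers MITF, PMEL, MLANA, TYR, DCT and TYRP1 were read in every library, with summed levels of 12399 and 19326 CPM in 501Mel cells against 31137 to 32257 CPM in Hermes 3A cells. PMEL and TYRP1 were the largest in every library, so the sums mostly follow them. PMEL, MLANA, TYR and TYRP1 were lower in 501Mel cells. DCT went the other way, at 1068 and 1300 CPM in 501Mel cells against 7.37 to 13.1 CPM. MITF was at 702 and 854 CPM against 643 to 678 CPM. Of the 8 fibroblast markers, COL1A2 was read at 69.5 to 187 CPM in Hermes 3A cells and at 0.0697 and 0.106 CPM in 501Mel cells, while COL1A1 and LUM reached 6.53 and 8.34 CPM in 501Mel replicate 1 and DCN was at 0.163 CPM or less throughout. The 7 fibroblast markers other than COL1A2 summed to 19.7 and 4.31 CPM in 501Mel cells and to 11.6, 4.50 and 3.76 CPM in Hermes 3A cells. Of the Hermes 3A sums, LUM held 7.35, 1.13 and 0.964 CPM. Of the keratinocyte markers, KRT10 was read at 32.6 to 47.4 CPM, and KRT15, DSG3, SFN and EPCAM stayed at 0.318 CPM or less. KRT5, KRT14 and KRT1 were not listed for both lines, so they were not compared. The endothelial markers CDH5, VWF and TEK summed to 0.256 to 0.612 CPM, and PECAM1 was not listed for both lines.

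Most of the 10 factors were lower in the melanoma line. Of the 10, 9 passed the filter on low counts, and 8 of those differed between the lines at an adjusted p of 0.05 or less by edgeR's quasi-likelihood test, adjusted by Benjamini-Hochberg over all genes tested. Of these, 7 were higher in Hermes 3A cells (SOX10, SOX9, PAX3, TFAP2A, FOXD3, IRF4 and MSC) and 1, SOX5, was higher in 501Mel cells. In bulk RNA, fewer cells with a transcript and less of it per cell cannot be told apart. TFAP2C did not pass the test and SOX2 was not tested. The lines differ widely in general, since the same test called 8664 of 17918 genes, or 48.4%, with 24.1% higher in Hermes 3A cells and 24.3% higher in 501Mel cells. The median log2 difference (501Mel over Hermes 3A) was −1.18 over the 9 factors and 0.02 over all genes tested. Libraries of the lines did not overlap for 8 of the 9 factors, as for 69.9% of all genes tested. Under a rule that also asks for a 2-fold difference, 6 of the 9 factors passed, beside 34.3% of all genes tested.

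**Figure D1:**
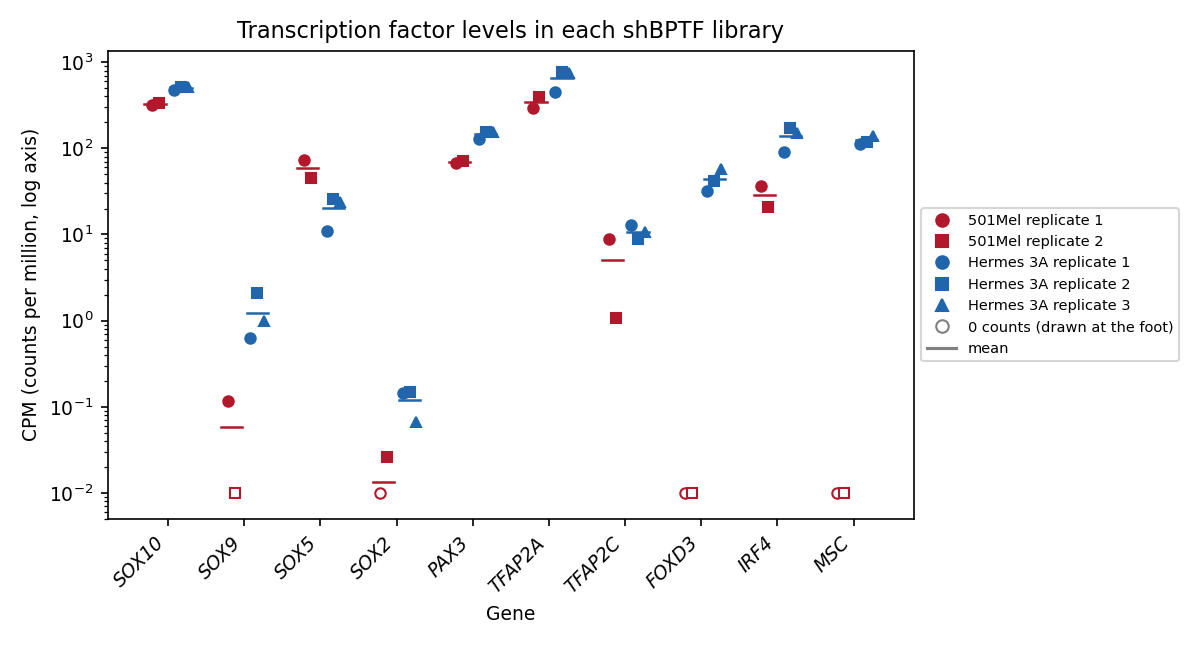
Level of each of the 10 factors in each library, in CPM on a log axis. Red points are the 2 501Mel libraries and blue points the 3 Hermes 3A libraries, short lines are means, and open points at the foot are libraries with 0 counts. FOXD3 and MSC were at 0 in 501Mel cells and above 31 CPM in every Hermes 3A library, and SOX5 alone had both 501Mel libraries above all Hermes 3A libraries.

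MSC and FOXD3 were read in the melanocytes alone. MSC (musculin, a basic helix-loop-helix repressor, ENSG00000178860, chromosome 8, 71841549 to 71844468, minus strand) had 0 counts in both 501Mel libraries and 4639, 4901 and 4186 counts, or 111, 120 and 139 CPM, in Hermes 3A cells. FOXD3 (a forkhead repressor of early neural crest cells, ENSG00000187140, chromosome 1, 63323041 to 63325126, plus strand) also had 0 counts in both 501Mel libraries and 1325, 1721 and 1735 counts, or 31.8, 42.1 and 57.7 CPM, in Hermes 3A cells. Coordinates here and below are those of GENCODE 29 on GRCh38, whereas the submitters' processing notes name hg19. Against a floor of 3 counts per library, MSC was at least 1558-fold and FOXD3 at least 554-fold higher in Hermes 3A cells (edgeR adjusted p = 1.01e-05 and 5.37e-05). Among all genes tested, 167, or 0.932%, had no count in either 501Mel library.

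Both genes have an antisense neighbour with the same pattern. MSC-AS1 had 9 and 11 counts in 501Mel cells against 719, 649 and 470 counts in Hermes 3A cells (log2 difference −6.08 ± 0.34, SE, edgeR adjusted p = 4.13e-05), and it shares 414 bp, or 19.6% of the MSC exons. FOXD3-AS1 had 0 counts in 501Mel cells against 326, 401 and 262 counts in Hermes 3A cells, at least 111-fold more, and shares 179 bp, or 8.58% of the FOXD3 exons. Whether reads were counted by strand is not given in the sources used here, so reads of the shared stretches cannot be told apart. In Hermes 3A cells the antisense gene held 11.2% to 15.5% as many CPM as MSC and 15.1% to 24.6% as many as FOXD3.

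Promoter sequence is shown for FOXD3, which was read in 1 line only, for SOX5, the sole factor higher in 501Mel cells, and for IRF4, which was lower there. Each runs from 250 bases before to 50 bases after a start site in RefSeq (GRCh38.p14), where 6 of the 10 factors had an entry. Capitals mark matches on either strand to 4 short motifs, the E-box CACGTG and its variant CATGTG, to which MITF and related proteins bind, and ACAAAG and ACAATG, cores of the kind SOX proteins bind. CACGTG reads the same on both strands, and no match overlapped another. The FOXD3 window is chr1:63322317-63322616 (plus strand), the SOX5 window chr12:24562442-24562741 (minus strand) and the IRF4 window chr6:391502-391801 (plus strand).
FOXD3: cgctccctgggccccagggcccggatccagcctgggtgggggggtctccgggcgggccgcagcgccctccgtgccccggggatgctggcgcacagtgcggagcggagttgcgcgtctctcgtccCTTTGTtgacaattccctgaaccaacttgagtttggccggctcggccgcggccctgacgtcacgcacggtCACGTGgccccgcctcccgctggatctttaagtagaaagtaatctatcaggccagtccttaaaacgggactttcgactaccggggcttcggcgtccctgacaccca
SOX5: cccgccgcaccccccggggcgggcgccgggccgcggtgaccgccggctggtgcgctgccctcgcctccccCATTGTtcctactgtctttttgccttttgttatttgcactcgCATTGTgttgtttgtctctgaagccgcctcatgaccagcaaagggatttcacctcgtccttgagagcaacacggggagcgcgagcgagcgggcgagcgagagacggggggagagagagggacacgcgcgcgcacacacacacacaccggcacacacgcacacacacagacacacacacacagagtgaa
IRF4: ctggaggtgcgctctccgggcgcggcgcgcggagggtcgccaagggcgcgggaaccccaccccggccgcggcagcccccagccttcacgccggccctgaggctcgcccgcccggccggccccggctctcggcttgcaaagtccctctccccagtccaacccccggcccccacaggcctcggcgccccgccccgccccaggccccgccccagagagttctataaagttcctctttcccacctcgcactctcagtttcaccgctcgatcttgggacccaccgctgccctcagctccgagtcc
The FOXD3 window held CACGTG, beginning 56 bases before the start site, and CTTTGT, the reverse complement of ACAAAG, beginning 126 bases before it. The SOX5 window held CATTGT, the reverse complement of ACAATG, beginning 180 and 138 bases before the start. None of the motifs was in the IRF4 window, nor in those of PAX3 and TFAP2A, while the SOX2 window held CATGTG and ACAAAG. Among 34796 RefSeq promoter windows of this length, 7.20% held CACGTG, 11.1% CATGTG, 16.1% ACAAAG and 10.8% ACAATG. The GC content was 66.3% for FOXD3, 63.7% for SOX5 and 74.0% for IRF4, and the median over all windows was 58.7%. A match describes the letters and was not tested as a binding site.

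SOX10, the SOX factor that marks the melanocyte lineage from the crest onwards, was abundant in both lines. SOX10 (ENSG00000100146, chromosome 22, 37970686 to 37987422, minus strand) was read at 319 and 334 CPM in 501Mel cells and at 471, 517 and 513 CPM in Hermes 3A cells. The replicates lay close together and the lines did not overlap. It was lower in 501Mel cells by a modest amount (log2 difference −0.68 ± 0.14, SE, 1.60-fold, edgeR adjusted p = 0.00671). POLR2F, a subunit of RNA polymerases, runs over SOX10 on the opposite strand and shares 89 bp, or 2.40% of its exons. POLR2F had 92.4 and 85.1 CPM in 501Mel cells against 60.0 to 66.6 CPM in Hermes 3A cells, the other direction from SOX10 (log2 difference 0.44 ± 0.14, edgeR adjusted p = 0.0347). The POLR2F call was lost in 8 of the 11 other settings tried, 4 of which left out a library (501Mel replicate 1 or 2, Hermes 3A replicate 2 or 3, adjusted p = 0.0938 to 0.188).

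SOX9, the relative of SOX10 that drives cartilage and glial fates and is often opposed to SOX10 in melanoma, was scarce in both lines and lower in 501Mel cells. SOX9 (ENSG00000125398, chromosome 17, 72121020 to 72126420, plus strand) had 5 and 0 counts in 501Mel cells against 26, 85 and 30 counts in Hermes 3A cells. These are 0.116 and 0 CPM against 0.624, 2.08 and 0.998 CPM, with no overlap. Over pooled counts SOX9 was 20.3-fold higher in Hermes 3A cells (exact 95% interval 8.48 to 63.4, counting error only), and it was called (log2 difference −4.33 ± 1.01, edgeR adjusted p = 0.0110). The size rests on few reads, since 501Mel replicate 2 had none, and without that library the log2 difference was −3.45 (adjusted p = 0.0391). Without 501Mel replicate 1 no 501Mel read remained. Its antisense gene SOX9-AS1 had 1 to 6 counts in each library.

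Set against SOX10 within the same library, there were 0.364 and 0 SOX9 reads per 1000 SOX10 reads in 501Mel cells against 1.32, 4.03 and 1.94 in Hermes 3A cells. The ranges did not overlap, with a difference of means of −2.25 reads per 1000 (exact two-sided permutation test, p = 0.2, adjusted p = 0.4 over the 2 ratios tested). On the planned log2 scale, with 1 added to each count, the difference was −3.59 (exact two-sided permutation test, p = 0.1, not adjusted). With 2 against 3 libraries that test cannot give a p below 0.1. SOX9 thus stood far under SOX10 in all 5 libraries.

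SOX5, a SOX factor without an activation domain that modulates SOX10 at melanocyte genes, went the other way. SOX5 (ENSG00000134532, chromosome 12, 23529500 to 24562544, minus strand) was read at 73.0 and 44.8 CPM in 501Mel cells and at 10.9, 26.0 and 23.7 CPM in Hermes 3A cells. It was higher in 501Mel cells (log2 difference 1.49 ± 0.36, 2.81-fold, edgeR adjusted p = 0.0119). The call needed 501Mel replicate 1, the higher of the pair, without which the log2 difference was 1.10 (adjusted p = 0.0947). SOX6, its closest relative, was also higher in 501Mel cells, at 87.3 and 123 CPM against 26.2 to 28.2 CPM (log2 difference 1.89 ± 0.18, edgeR adjusted p = 2.96e-04). SOX13, another SOX relative, was lower in 501Mel cells. It was read at 46.6 and 38.7 CPM against 65.7 to 82.0 CPM (log2 difference −0.90 ± 0.15, edgeR adjusted p = 0.0031). Of the genes within the SOX5 span, SOX5-AS1 had 0 or 1 count in every library and AC087260.1 and MIR920 were not listed in both lines.

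SOX2, a factor of pluripotent and neural progenitor cells that restrains melanocyte differentiation, was near or below the floor. SOX2 (ENSG00000181449, chromosome 3, 181711924 to 181714436, plus strand) had 0 and 1 count in 501Mel cells against 6, 6 and 2 counts in Hermes 3A cells. The highest library reached 0.147 CPM. The ratio of pooled counts was 10.1 in favour of Hermes 3A cells, with an exact 95% interval of 1.53 to 425 that covers counting error only. Without the filter on low counts the test gave an adjusted p of 0.101 (edgeR), so a difference was not detectable at this depth. SOX2-OT, a long RNA on the same strand that spans SOX2, had 0 and 3 counts against 7, 9 and 8.

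PAX3 was lower in 501Mel cells, with little spread within either line. PAX3 (a paired box activator of MITF, ENSG00000135903, chromosome 2, 222199888 to 222298996, minus strand) was read at 68.1 and 71.8 CPM in 501Mel cells and at 127, 153 and 156 CPM in Hermes 3A cells. The lines were well apart beside the spread within each (log2 difference −1.12 ± 0.14, 2.17-fold, edgeR adjusted p = 0.00088), and the log2 difference stayed between −1.20 and −1.06 in the 11 other settings. CCDC140, which starts beside PAX3 on the opposite strand and shares none of its exons, was at 1.12 and 1.43 CPM in 501Mel cells and at 2.86 to 3.69 CPM in Hermes 3A cells (log2 difference −1.41 ± 0.38, edgeR adjusted p = 0.0183). That call was lost without 501Mel replicate 1 (adjusted p = 0.0924) and without Hermes 3A replicate 3 (adjusted p = 0.0598), and also with the replicate number as a block (adjusted p = 0.0680).

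IRF4, an interferon regulatory factor that acts with MITF and TFAP2A on the tyrosinase gene, was lower in 501Mel cells. IRF4 (ENSG00000137265, chromosome 6, 391739 to 411447, plus strand) was read at 36.3 and 20.8 CPM in 501Mel cells and at 90.5, 172 and 152 CPM in Hermes 3A cells. Hermes 3A replicate 1 was the lowest of its group, yet every Hermes 3A library was above both 501Mel libraries (log2 difference −2.33 ± 0.33, 5.02-fold, edgeR adjusted p = 0.00142). Leaving out single libraries kept the call, with an edgeR adjusted p of at most 0.0074.

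TFAP2A, the AP-2 factor that works with MITF at pigment genes, was lower in 501Mel cells. TFAP2A (ENSG00000137203, chromosome 6, 10393186 to 10419659, minus strand) was read at 297 and 397 CPM in 501Mel cells and at 455, 774 and 750 CPM in Hermes 3A cells. The gap between the lines was narrow at Hermes 3A replicate 1 (log2 difference −0.98 ± 0.26, 1.97-fold, edgeR adjusted p = 0.0170), and without 501Mel replicate 1 the call was lost (log2 difference −0.79, adjusted p = 0.110). TFAP2A-AS1, which shares 438 bp or 5.29% of the TFAP2A exons on the opposite strand, went the other way. It was read at 20.5 and 43.6 CPM in 501Mel cells and at 6.27, 14.9 and 12.2 CPM in Hermes 3A cells (log2 difference 1.48 ± 0.41, edgeR adjusted p = 0.0216). That call was lost without 501Mel replicate 2 (log2 difference 0.81, adjusted p = 0.185) and without Hermes 3A replicate 3 (adjusted p = 0.0512). Another antisense gene there, TFAP2A-AS2, was not listed.

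TFAP2C, the AP-2 relative with roles in germ cells, trophoblast and breast epithelium, differed more within 501Mel cells than between the lines. TFAP2C (ENSG00000087510, chromosome 20, 56629302 to 56639283, plus strand) had 385 and 41 counts, or 8.95 and 1.08 CPM, in 501Mel cells against 13.0, 8.76 and 10.6 CPM in Hermes 3A cells. 501Mel replicate 1 lay within the Hermes 3A range and replicate 2 lay under it, with an 8.26-fold gap in CPM between the pair. With 0.1 CPM added to each value, 0.497% of the genes tested had a larger gap between the 501Mel replicates. The difference did not pass the test (log2 difference −1.18 ± 0.74, edgeR adjusted p = 0.224), but it did without 501Mel replicate 1 (−3.38, adjusted p = 0.00346), and without replicate 2 it was −0.37 (adjusted p = 0.463). Its reads per 1000 TFAP2A reads were 30.1 and 2.73 in 501Mel cells against 28.5, 11.3 and 14.1 in Hermes 3A cells, so that the 501Mel libraries bracketed the others (difference of mean log2 ratios −0.87, exact two-sided permutation test, p = 0.7, adjusted p = 0.7 over the 2 ratios). Without 501Mel replicate 2 that difference was 0.86.

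**Figure D2:**
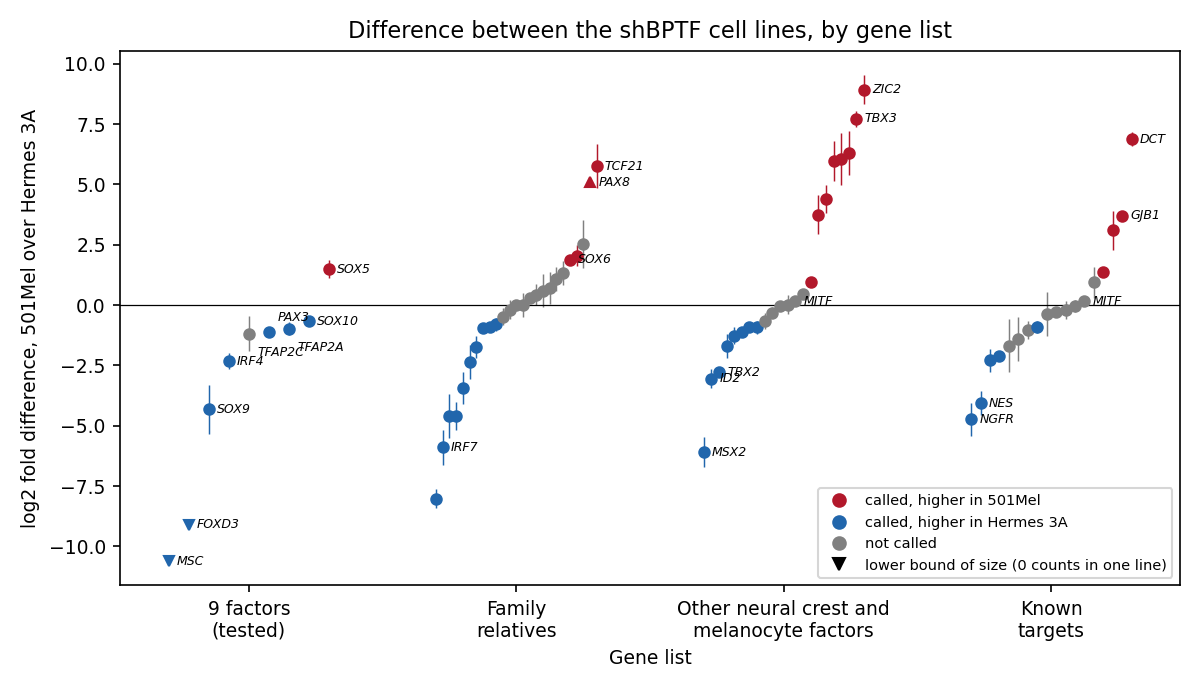
Log2 difference between the lines (501Mel over Hermes 3A, points, with SE as bars) for the 9 factors tested and for the tested genes of 3 further lists. Red and blue points passed the test, grey points did not, and triangles mark lower bounds of size where a line had 0 counts. The factors lie below 0 apart from SOX5, while the other lists spread to both sides.

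To set levels of different genes side by side, CPM was divided by the length of each gene's joined exons, as CPM per kb. In 501Mel cells SOX10 (88.1 CPM per kb) stood above TFAP2A (42.0), PAX3 (8.81), SOX5 (5.64), IRF4 (4.84) and TFAP2C (1.67), and SOX9 (0.0148), SOX2 (0.00526), FOXD3 and MSC (both 0) made the foot. SOX5 and IRF4 overlapped over their libraries, as did SOX9 with SOX2 and SOX2 with FOXD3, and the other neighbours with reads did not. In Hermes 3A cells the order was SOX10 (135 CPM per kb), TFAP2A (79.7), MSC (58.4), IRF4 (23.4), FOXD3 (21.0), PAX3 (18.3), TFAP2C (3.58), SOX5 (1.93), SOX9 (0.314) and SOX2 (0.0474). There TFAP2A overlapped MSC, and IRF4, FOXD3 and PAX3 overlapped along the order. MSC thus lay among the top levels of the melanocyte line and at 0 in the melanoma line, and SOX5 ranked 4 in 501Mel cells against 8 in Hermes 3A cells. With the median transcript length in place of joined exons, TFAP2A ranked above SOX10 in both lines. Library preparation included a nuclease step that lowers abundant sequences, and its part in these levels was not tested.

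**Figure D3:**
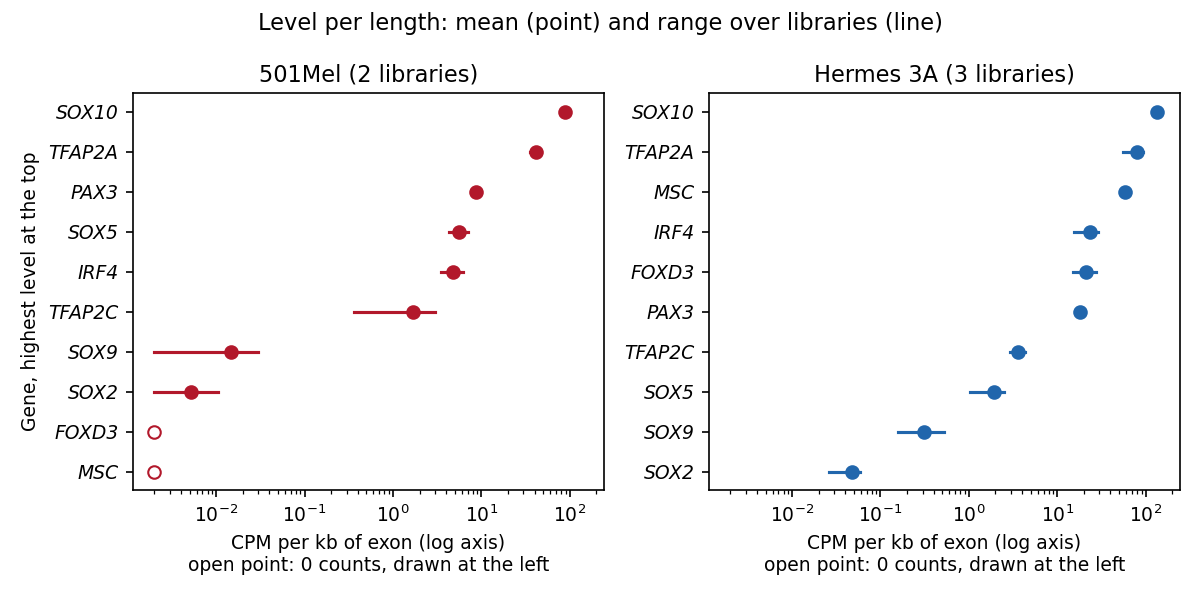
Level of each factor per kb of exon, on a log axis, ordered from the highest at the top within each line. Points are means and lines the range over libraries, and open points mark 0 counts. SOX10 and TFAP2A headed both orders, while MSC and FOXD3, which ranked 3 and 5 in Hermes 3A cells, had 0 counts in 501Mel cells.

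By root mean square difference of centred log2(CPM + 1) over the 5 libraries, the genes most like SOX10 were IRF2BP2 (0.0320), GREB1 (0.0323) and PLEKHH3 (0.0324). IRF2BP2, for example, was read at 79.3 and 87.6 CPM in 501Mel cells and at 122 to 132 CPM in Hermes 3A cells. The genes most like MSC were PCDHGC3 (0.158), CHST3 (0.182) and DNAJA4 (0.188). CHST3, a chondroitin sulfotransferase, was at 0 in both 501Mel libraries and at 86.1 to 106 CPM in Hermes 3A cells, and PCDHGC3, a protocadherin of a cluster whose genes share exons, was at 0.0528 CPM or less against 107 to 126 CPM.

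Relatives of the 10 factors differed in both directions. Of 38 SOX, PAX, TFAP2, FOXD, IRF and MSC relatives, 30 were listed in both lines and 25 were tested, of which 14 passed, 4 of them higher in 501Mel cells against 10 higher in Hermes 3A cells (median log2 difference −0.02, beside 0.02 over all genes, of which 48.4% were called). TCF21, the relative of MSC, had 101 and 74 counts in 501Mel cells against 4, 0 and 0 counts in Hermes 3A cells. Its pooled counts differed 60.9-fold (exact 95% interval 23.4 to 226, counting error only). The 4 Hermes 3A counts of TCF21 were all in replicate 1. MSC and TCF21 were thus each read almost wholly in a different line. PAX8, a factor of thyroid and kidney, had 180 and 98 counts in 501Mel cells against 0 in all Hermes 3A libraries, at least 33.9-fold more. SOX7, an endothelial SOX factor, was at 1.02 and 1.06 CPM in 501Mel cells and at 0.220 to 0.264 CPM in Hermes 3A cells (log2 difference 2.04 ± 0.43, edgeR adjusted p = 0.00736).

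Among the relatives higher in Hermes 3A cells were the interferon regulatory factors IRF7 and IRF5. IRF7, which drives type I interferon, was at 0.372 and 0.502 CPM in 501Mel cells and at 8.40, 35.7 and 32.1 CPM in Hermes 3A cells (log2 difference −5.90 ± 0.73, edgeR adjusted p = 8.33e-04), with replicate 1 the lowest as for IRF4. IRF5, an innate immune factor, was at 0.116 and 0.158 CPM against 2.06 to 4.06 CPM (log2 difference −4.59 ± 0.57, edgeR adjusted p = 8.30e-04). SOX30, a testis factor, had 1 count in 501Mel cells against 41 in Hermes 3A cells. The ratio of pooled counts was 29.5 (exact 95% interval 5.00 to 1191, counting error only). The single 501Mel count of SOX30 was in replicate 1. PAX1 and PAX7 were at 0 in every library.

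Among 25 other neural crest and melanocyte factors, 22 were tested and 16 passed, 8 in each direction, beside 48.4% of all genes tested. MITF, the master regulator of melanocytes, was at 702 and 854 CPM in 501Mel cells and at 643, 674 and 678 CPM in Hermes 3A cells. The difference did not pass the test (log2 difference 0.17 ± 0.16, edgeR adjusted p = 0.433), and it was −0.01 without 501Mel replicate 2. Higher in 501Mel cells were the crest border factors ZIC2, with 1043 and 1559 counts against 5, 2 and 0, and ZIC1, at 25.1 and 15.1 CPM against 0.744, 0.0489 and 0 CPM (log2 difference 6.06 ± 1.07, edgeR adjusted p = 0.00349). Pooled counts of ZIC2 differed 517-fold (exact 95% interval 251 to 1288, counting error only). GBX2, a hindbrain and crest factor, had 142 counts in 501Mel cells against 2 in Hermes 3A cells. The ratio of pooled counts was 98.8 (exact 95% interval 26.9 to 824, counting error only). Without Hermes 3A replicate 1 the fitted log2 difference was 9.28 for ZIC1 and 9.99 for ZIC2, beside 8.92 with it for ZIC2, and for GBX2 it was 5.04 without 501Mel replicate 1 and 6.92 without replicate 2.

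The T-box repressors TBX2 and TBX3, close relatives, differed in opposite directions. TBX3 was at 45.4 and 80.8 CPM in 501Mel cells and at 0.264 to 0.299 CPM in Hermes 3A cells (log2 difference 7.72 ± 0.34, edgeR adjusted p = 1.82e-05). TBX2 was at 38.2 and 35.1 CPM in 501Mel cells and at 230 to 263 CPM in Hermes 3A cells (log2 difference −2.79 ± 0.15, edgeR adjusted p = 3.42e-05). Also higher in Hermes 3A cells was MSX2, a homeobox target of BMP signals, with 8 counts in 501Mel cells against 738 in Hermes 3A cells. The ratio of pooled counts was 66.3 (exact 95% interval 33.5 to 154, counting error only). ID2, an inhibitor of basic helix-loop-helix proteins, was at 28.0 and 24.4 CPM against 107, 254 and 271 CPM (log2 difference −3.06 ± 0.39, edgeR adjusted p = 9.32e-04). ID1 was at 17.1 and 5.31 CPM against 41.5, 25.7 and 36.4 CPM (log2 difference −1.70 ± 0.49, edgeR adjusted p = 0.0236), a call lost without Hermes 3A replicate 3 (adjusted p = 0.0504). The ID1 difference was −2.77 without 501Mel replicate 1 and −1.12 without replicate 2, and that of MSX2 was −7.84 and −5.40.

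Of 18 genes known as targets of the factors, most of them of SOX10, 9 passed the test, 4 higher in 501Mel cells against 5 higher in Hermes 3A cells (median log2 difference −0.32), near the 48.4% called among all genes. The pigment enzymes split. DCT, a SOX10 and MITF target, was at 1068 and 1300 CPM in 501Mel cells and at 7.37, 8.83 and 13.1 CPM in Hermes 3A cells (log2 difference 6.87 ± 0.29, edgeR adjusted p = 1.62e-05). TYR, tyrosinase, was at 397 and 695 CPM in 501Mel cells and at 905 to 1029 CPM in Hermes 3A cells (log2 difference −0.91 ± 0.26, edgeR adjusted p = 0.0246), a call lost without 501Mel replicate 1 (adjusted p = 0.0886) or Hermes 3A replicate 2 (adjusted p = 0.0513). TYRP1 did not pass (edgeR adjusted p = 0.0585).

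Glial genes that SOX10 is known to drive also went both ways. The gap junction gene GJB1 was at 131 and 112 CPM in 501Mel cells and at 8.28 to 9.52 CPM in Hermes 3A cells (log2 difference 3.70 ± 0.15, edgeR adjusted p = 1.51e-05). CDH19, a cadherin of Schwann cell precursors, was lower in 501Mel cells, at 42.7 and 39.6 CPM against 160 to 187 CPM (log2 difference −2.12 ± 0.16, edgeR adjusted p = 1.18e-04).

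**Figure D4:**
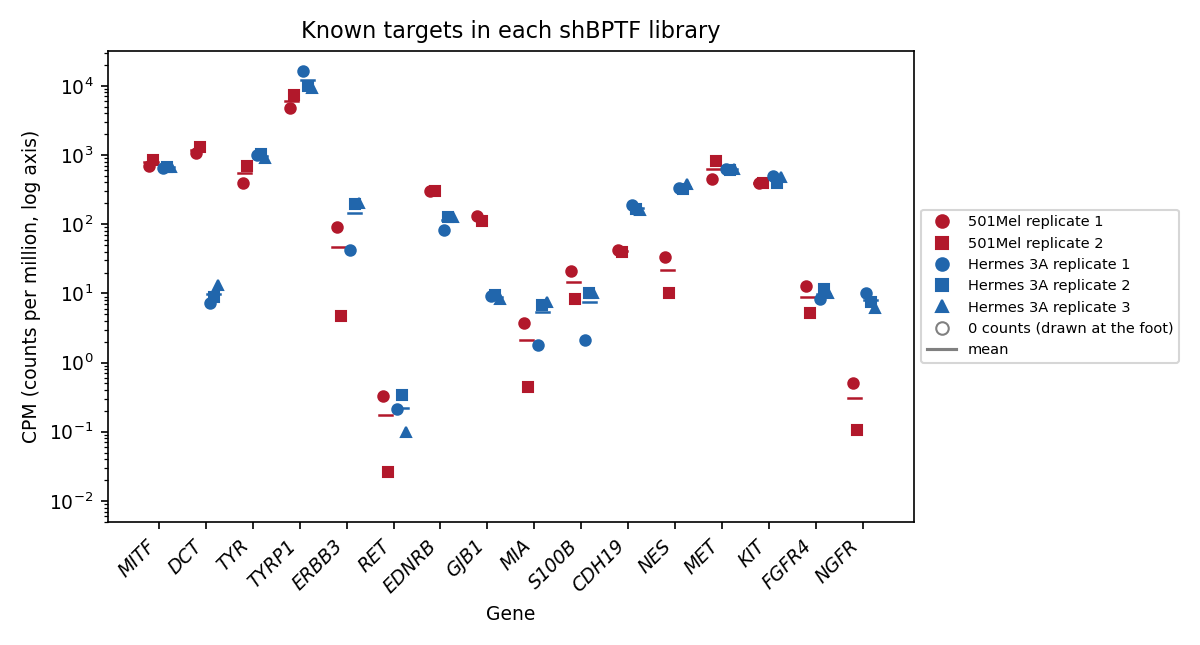
Level of 16 of the 18 known targets in each library, in CPM on a log axis, with red points for 501Mel, blue points for Hermes 3A and short lines for means. DCT and GJB1 were above 100 CPM in 501Mel cells and below 14 CPM in Hermes 3A cells, NES was above 300 CPM in Hermes 3A cells alone, and the ERBB3 libraries of the lines overlapped.

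NES and NGFR, both known from crest progenitors, were higher in Hermes 3A cells. NES, the progenitor filament nestin, was at 33.4 and 10.1 CPM in 501Mel cells and at 324 to 380 CPM in Hermes 3A cells (log2 difference −4.06 ± 0.50, edgeR adjusted p = 8.08e-04). NGFR, a neurotrophin receptor of neural crest cells, was at 0.511 and 0.106 CPM against 6.18 to 10.3 CPM (log2 difference −4.74 ± 0.67, edgeR adjusted p = 0.00143). Without 501Mel replicate 1 the log2 difference was −5.16 for NES and −6.26 for NGFR, and without replicate 2 it was −3.46 and −4.06. EDNRB, the endothelin receptor of melanoblasts, was higher in 501Mel cells, at 301 and 305 CPM against 82.9, 128 and 129 CPM (log2 difference 1.36 ± 0.19, edgeR adjusted p = 0.00132). Endothelin-1, its ligand, was in the Hermes 3A medium alone, and the part of the medium was not tested.

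The 501Mel replicates lay far apart for several SOX10 targets while their SOX10 levels were close. ERBB3, a neuregulin receptor and SOX10 target, was at 90.0 and 4.68 CPM in 501Mel cells and at 42.2, 195 and 202 CPM in Hermes 3A cells. The gap between its 501Mel replicates was 19.3-fold. With 0.1 CPM added to each value, 0.0614% of the genes tested had a larger gap. The log2 difference between the lines was −1.68 for ERBB3 (edgeR adjusted p = 0.241), and −5.01 without 501Mel replicate 1. ERBB3 and MIA, a secreted melanoma protein with an 8.33-fold gap, were chosen for this description after their values were seen. Replicate 1 was above replicate 2 for 12 of the 18 targets, beside 54.0% of all genes tested, and for 4 of the 7 factors with counts in 501Mel cells. SOX10 (ratio 0.955) and PAX3 (0.948) were close to even. Over all genes tested, with 0.1 CPM added, the median gap was 1.21-fold between the 2 501Mel replicates. It was 1.38-fold between the highest and lowest of the 3 Hermes 3A replicates. A gap over 3 libraries is wider by its making, so these medians do not rank the lines by spread. The summed fibroblast markers were also higher in replicate 1, at 19.8 and 4.41 CPM, while all 6 melanocyte markers were lower in it, with ratios of 0.572 for TYR, 0.649 for TYRP1 and 0.822 for DCT, the other way from ERBB3 and MIA. The part of either in the gaps was not tested.

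**Figure D5:**
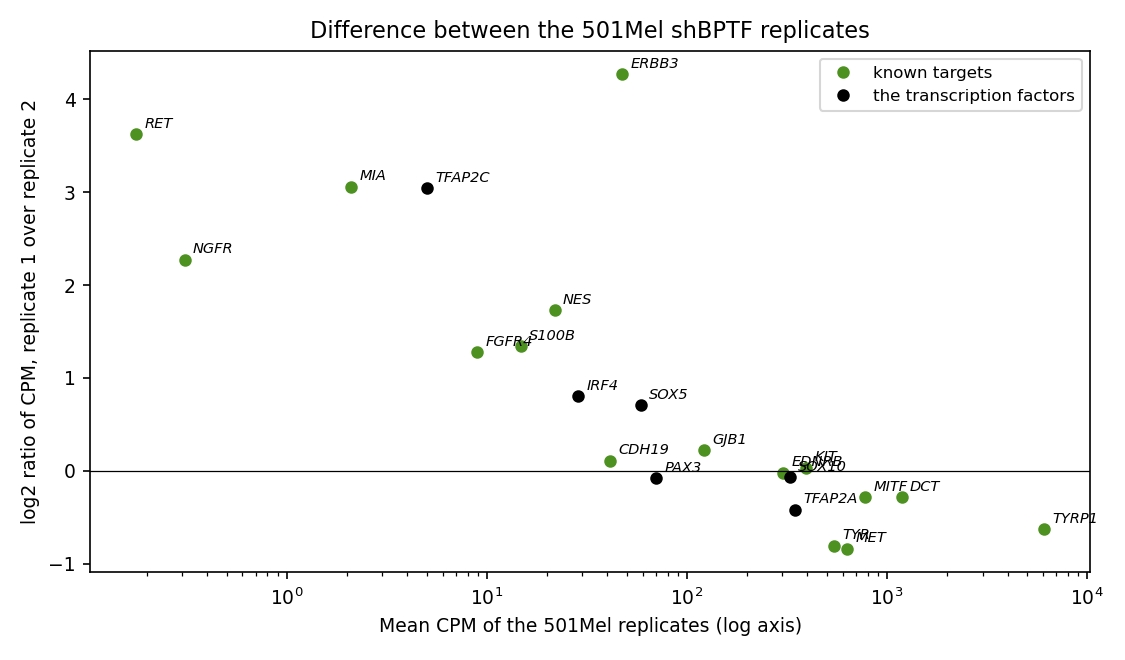
Difference between the 501Mel replicates (log2 ratio of CPM, replicate 1 over replicate 2) against mean CPM on a log axis, for 16 of the targets (green) and for the factors (black) with counts in both. SOX10 and PAX3 lie near 0, while ERBB3 and TFAP2C lie high, with 19.3-fold and 8.26-fold gaps.

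Hermes 3A replicate 1 was the library least like its group. In CPM it was the lowest of the 3 for 8 of the 10 factors and the highest for TFAP2C. CPM leaves out the TMM factors, which were 0.942 for replicate 1, 1.02 for replicate 2 and 0.988 for replicate 3. How many of all genes tested were lowest in replicate 1 was not counted, so the 8 are not read as a trait of the factors. Replicate 1 was also the lowest for ERBB3, MIA and S100B and for COL1A2, at 69.5 CPM beside 180 and 187. It was the highest for the sum of the other fibroblast markers, at 11.6 CPM beside 4.50 and 3.76. LUM held 7.35 CPM of that sum, beside 1.13 and 0.964 CPM in replicates 2 and 3. PDGFRA, PDGFRB and THY1 were also highest in replicate 1, while COL1A1 and COL3A1 were lowest there. Without replicate 1 every call among the factors stayed as it was, with log2 differences of −0.71 for SOX10, 1.19 for SOX5, −1.20 for PAX3, −1.18 for TFAP2A and −2.56 for IRF4.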

How the data were processed

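The authors deposited raw read counts per gene, 1 table for each library, from rRNA-depleted, nuclease-normalised total RNA. The submitters' processing notes name CASAVA 1.8, TopHat 1.4.1, Bowtie 0.12.7 and hg19, and the counter, annotation release and strand setting are not given in the sources used here. The tables list 37259 genes for 501Mel and 34033 for Hermes 3A, so fits used the 31029 shared genes (99.3% to 99.9% of counts), with full totals as library sizes. Symbols came from GENCODE 29, which named 29317 of them. CPM is counts per 1000000 of the total.

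The lines were compared with edgeR 4.0.16 (R 4.3.3; TMM, filterByExpr, quasi-likelihood test, Benjamini-Hochberg), called at 0.05. The procedure was tested on simulated data with a single spread for all genes and libraries. Replicates here differed in spread, so that test does not vouch for these calls. Ratios within libraries used exact permutation tests. The SOX9 to SOX10 ratio was planned on a log2 scale, and the linear ratio was used since 1 library had no SOX9 count. The text names the 10 factors, MITF, BPTF, overlapping genes and the 3 genes most like SOX10 and MSC. It also names up to 4 called genes per direction and list by size. SOX13, TYR, TYRP1, ERBB3, MIA and S100B were added after their values were seen. Some genes that the rule names are not reported here. Factors and lists were chosen with earlier results of these data known. DESeq2 1.42.0, other scalings, no filter, a 2-fold rule, a replicate block and single libraries left out were the alternatives.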

Additional observations from a re-analysis of the deposited data

How the results depend on the processing

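Over 11 alternative settings, the number of genes called ranged from 6104 to 9282 (8664 as reported, 8880 with DESeq2), of the 10 factors from 6 to 9, of the family relatives from 11 to 15, of the other crest and melanocyte factors from 13 to 17 and of the targets from 8 to 10. Of 99 alternative values for the 9 factors tested, 93 kept direction and call, 4 lost the call, 2 gained it and 0 turned direction. SOX10 and TFAP2A fell short of a 2-fold rule. The calls lost without 501Mel replicate 1 were SOX5 (1.10) and TFAP2A (−0.79), and TFAP2C gained a call there (−3.38). Where a single 501Mel library remained, it was assumed to vary as the Hermes 3A libraries do. Of 363 values for 33 other genes, 343 kept direction and call, 18 lost the call, 1 gained it and 1 turned direction. The latter was MITF, which ranged from −0.0118 without 501Mel replicate 2 to 0.30 without 501Mel replicate 1. Leaving out single libraries moved the TFAP2C to TFAP2A log2 ratio difference between −2.60 and 0.86, turning its direction without 501Mel replicate 2, and the SOX9 to SOX10 difference kept its sign. With median transcript length, 6 of 10 factors kept their rank in 501Mel cells and 4 of 10 in Hermes 3A cells. Scaling by library totals moved the median of all genes to 0.09. The cause of these changes was not tested.

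The libraries share only replicate numbers. Deviations of same-numbered libraries correlated at 0.10 and 0.14. With 2 501Mel libraries the deviations of the pair are mirror images, so the swapped pairs gave −0.10 and −0.14. These values therefore cannot decide whether the libraries were paired. With the replicate block 7496 genes were called, with 9 factors, 12 relatives, 16 other factors and 9 targets. TFAP2C then passed (−1.78, edgeR adjusted p = 0.0375). CCDC140 and POLR2F lost their calls (adjusted p = 0.0680 and 0.0933).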
